A study of Rattus norvegicus with 2 samples.

Results

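Rere encodes a nuclear co-regulator named for its arginine and glutamic acid dipeptide repeats, and it hosted 19 of the 11599 circular RNAs (circRNAs) listed in rat spinal cord after a bone cancer pain (BCP) or a sham operation. A circRNA was taken as a member when Rere was among the names in its gene field. The gene itself was chosen by its read counts in these same libraries, because it hosted circRNAs that passed a size rule in both directions, so its differences between the libraries are descriptions and have no test. In the BCP group, live Walker256 cells, a rat mammary carcinoma line that had been grown as ascites in SD rats, were put into the marrow of the tibia. The Sham group had the same surgery with Walker256 cells that had been boiled for 20 min. Spinal cord was taken 21 days after surgery, 3 animals are described per group, and there was 1 library per group. Each library may hold pooled RNA of its animals or that of a single one, since the sources used here do not say. The tissue field of both libraries names spinal cord cells, while the source field names the injected line. There is thus no replicate check, and every difference is between 2 libraries and not between the conditions.

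A circRNA is a closed loop made when the end of a downstream exon is spliced back to the start of an upstream one, and it is recognised by reads that cross this back-splice junction. Having no free ends, circRNAs resist exonucleases, and nervous tissue is rich in them. The RERE protein belongs to the atrophin family. It acts in the nucleus with histone deacetylases and other chromatin enzymes, takes part in retinoic acid signalling, and is needed for normal development of the brain, eye and heart. What its circRNAs do is not addressed by these data.

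The libraries held 78836 back-splice reads in BCP and 113033 in Sham. Levels are given as reads and as CPM, the reads scaled to the library's total of circRNA reads. A ratio is the CPM in BCP over the CPM in Sham, with a 95% conditional exact binomial interval. All intervals cover counting error only. Reads carried no molecular identifiers, so they are not independent molecules. No circRNA was listed with 1 read, the lowest count being 2, and a value of 0 may therefore hide a read. In pieces of tissue, fewer cells that make an RNA and less of it per cell cannot be told apart.

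The 19 Rere circRNAs lay on chromosome 5 between 167455211 and 167615430 (build rn6), a stretch of 160220 bp in which no circRNA without the name Rere was listed. They were built from 8 start positions and 8 end positions, called here S1 to S8 and E1 to E8 in order along the chromosome. Of the 49 pairs in which the end lies beyond the start, these 19 were listed. The starts were 167455211 (S1), 167483059 (S2), 167486001 (S3), 167516581 (S4), 167518801 (S5), 167526171 (S6), 167547693 (S7) and 167557023 (S8). The ends were 167455676 (E1), 167486126 (E2), 167526275 (E3), 167547741 (E4), 167558250 (E5), 167560112 (E6), 167581074 (E7) and 167615430 (E8). Each circRNA is named by its pair, so that S4-E5 runs from S4 to E5. A start and an end lay close together at several places. S7 and E4 bounded 49 bp, S6 and E3 bounded 105 bp, S3 and E2 bounded 126 bp and S1 and E1 bounded 466 bp. Exon annotation of build rn6 was not used here, so these pairs are not matched to exons.

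**Figure D1:**
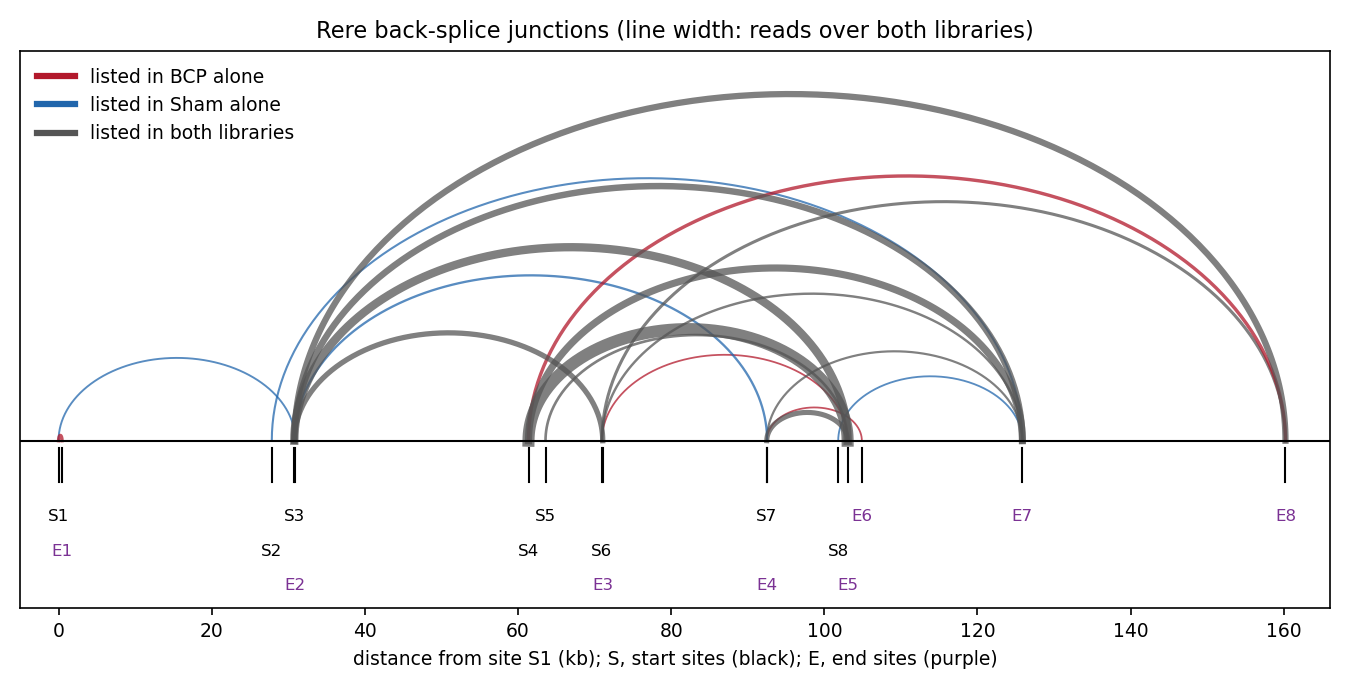
Map of the 19 Rere back-splice junctions. The horizontal axis is the distance from S1 in kb, each arc joins a start site (black label) to an end site (purple label), and its width grows with the reads summed over both libraries. Most of the wide arcs leave S3 and S4 and land at E5, E7 and E8. The BCP-alone arc from S4 to E8 runs between sites that other Rere circRNAs use, whereas the BCP-alone arc S1-E1 spans 466 bp at the left edge.

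A few sites carried most reads in both libraries. S3, used by 5 circRNAs, gave 132 reads in BCP and 216 in Sham, or 38.8% and 45.1% of the gene's reads. S4, used by 3 circRNAs, gave 130 reads in BCP and 173 in Sham, or 38.2% and 36.1%. Among ends, E5 took 159 reads in BCP and 212 in Sham (46.8% and 44.3%), E7 took 69 and 139 (20.3% and 29.0%) and E8 took 66 and 67 (19.4% and 14.0%). Every one of the 19 shared its start or its end with another circRNA in the table, and 11 shared both (57.9%). Over all circRNAs the shares were 59.9% and 16.6%. That gap narrows among genes with many circRNAs. Of the 202 host genes with at least 8, 74 had all their circRNAs sharing a site, Rere among them, and the median gene had 91.7%. For sharing of both sites the median was 40.0%, and 44 genes were above Rere.

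Summed over the gene, the libraries hardly differed. All Rere circRNAs together had 340 reads in BCP and 479 in Sham, which is 4313 CPM in BCP and 4238 CPM in Sham, a ratio of 1.02 (0.883 to 1.17). With median-of-ratios or TMM scaling the ratio was 0.946 or 0.938, on the other side of 1. The sum was 0.431% of BCP reads (exact binomial interval 0.387 to 0.480) and 0.424% of Sham reads (0.387 to 0.463). Each library listed 15 of the 19, whereas of all 11599 circRNAs BCP listed 7375 and Sham 9003. The make-up of this sum did differ. Counting only the 11 circRNAs listed in both libraries, there were 278 reads in BCP and 454 in Sham, a ratio of 0.878 (0.753 to 1.02). Without S4-E8 and S1-E1 alone, a choice made after the values were seen, there were 282 reads in BCP and 479 in Sham, a ratio of 0.844 (0.726 to 0.980).

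The most abundant Rere circRNA was S4-E5, with 72 reads in BCP and 107 in Sham (913 and 947 CPM; ratio 0.965, 0.705 to 1.31). It made up 21.2% of the gene's reads in BCP (17.0 to 25.9) and 22.3% in Sham (18.7 to 26.3). S3-E5 came next with 55 reads in BCP and 59 in Sham (698 and 522 CPM; ratio 1.34, 0.909 to 1.96). S4-E7 had 28 reads in BCP and 66 in Sham (355 and 584 CPM; ratio 0.608, 0.376 to 0.960). These are the 3 with most reads, and their levels differed between the libraries by less than 2-fold.

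Of the other circRNAs listed in both libraries, S3-E7 had 33 reads in BCP and 49 in Sham (ratio 0.966, 0.602 to 1.53), and S3-E8 had 28 and 51 (0.787, 0.478 to 1.27). S7-E5, the shortest of those listed in both at 10558 bp, had 25 reads in BCP and 34 in Sham (1.05, 0.603 to 1.82). S3-E3 stood lowest, with 16 reads in BCP and 46 in Sham. Its ratio of 0.499 (0.264 to 0.897) is 2.01-fold lower in BCP. The remaining ones were thin. S6-E8 had 8 reads in BCP and 16 in Sham, S6-E7 had 5 and 8, S5-E5 had 5 and 12, and S7-E7 had 3 and 6.

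Taking these 11 as a set, 9 had a ratio below 1 and 2 above 1, and the median ratio was 0.787. Over all circRNAs listed in both libraries, 43.9% had a ratio below 1 and the median was 1.08. The gene was picked on this contrast, so nothing is read from the comparison. The 2 above 1, S3-E5 and S7-E5, both end at E5. The interval of 9 held 1, and that of S3-E3 and S4-E7 lay below it. These 11 share sites and libraries, so they are not independent of each other.

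**Figure D2:**
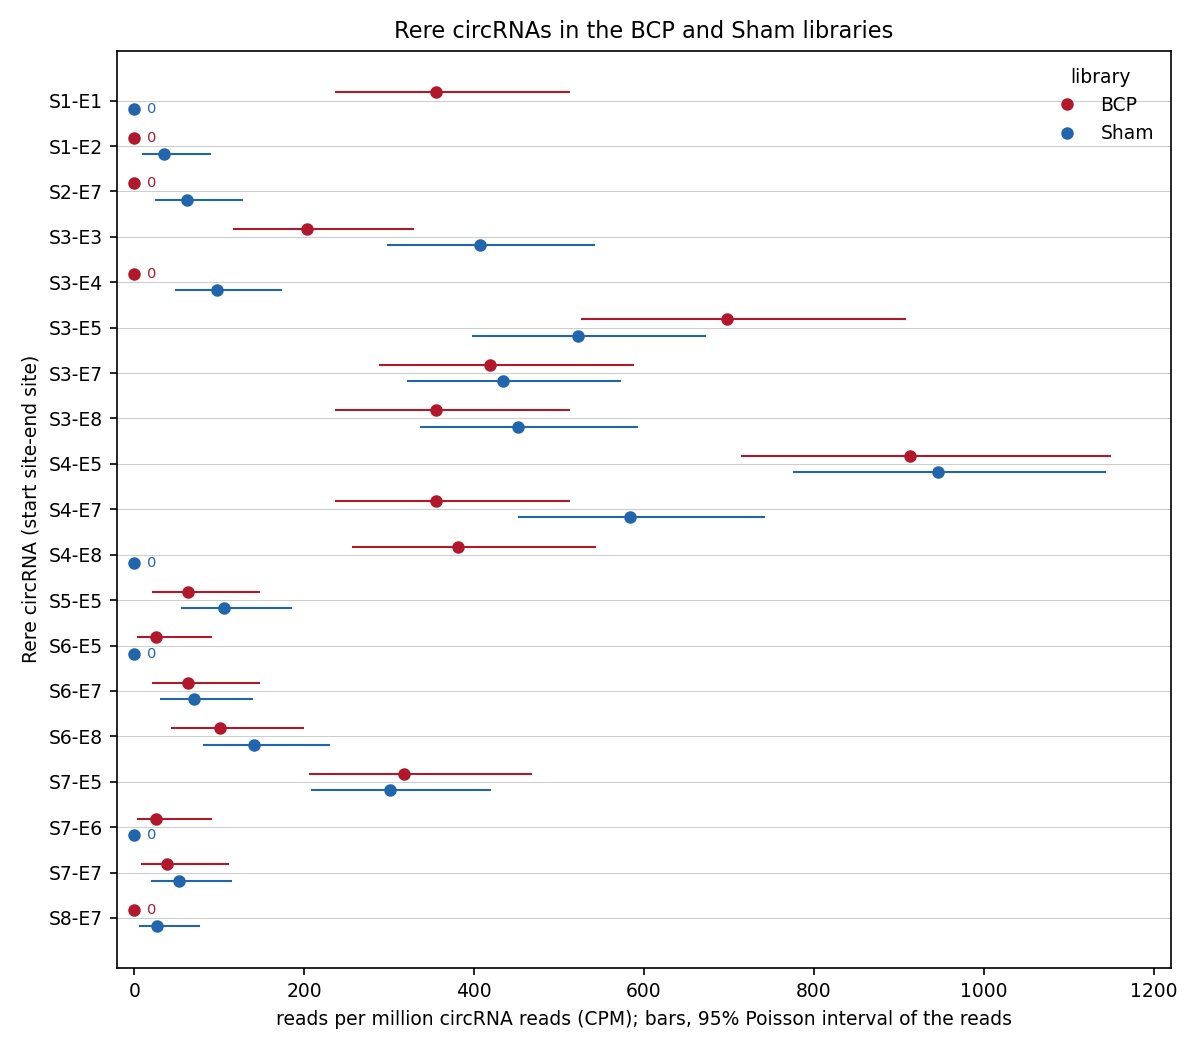
Level of each Rere circRNA in the BCP library (red) and the Sham library (blue), in CPM, with 95% Poisson intervals of the reads. Circles marked 0 were listed at 0. The bars of the libraries overlap for all 11 circRNAs listed in both, and the red circles of S1-E1 (355 CPM) and S4-E8 (381 CPM) face a Sham value of 0.

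The size rule asked for at least 10 reads over both libraries, at least a 2-fold ratio after adding 0.5 reads to each count, and an interval that excludes 1. Of the 13 Rere circRNAs with enough reads, 2 were higher in BCP and 1 was lower. Over all 3502 circRNAs with enough reads, 7.82% were higher and 7.34% lower, 15.2% in all. The gene was picked on this very contrast, so nothing is read from the comparison of these shares. S3-E3 lay just outside the rule. With 0.5 reads added its ratio became 1.97-fold lower, short of 2-fold, and it met the rule as lower with median-of-ratios or TMM scaling. S3-E4, with 0 reads in BCP and 11 in Sham, was just above the read minimum of 10. It was well past 2-fold, at 16.0-fold lower with 0.5 reads added. The median log2 ratio, with 0.5 reads added, was -0.11 for the 13 and 0.02 for all 3502.

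S4-E8, 98850 bp from start to end, had 30 reads in BCP and was listed at 0 in Sham. At the BCP level, the deeper Sham library would have held 43.0 reads. Even if Sham had 1 unlisted read, the interval of the ratio would begin at 7.15. Of the 2596 circRNAs listed in BCP alone, 16 (0.616%) had 30 reads or more, and the median of the 2596 was 3 reads. The gene was picked on calls such as this one, so nothing is read from this rank. Neither site of S4-E8 was missing from Sham. There, S4 gave 173 reads to E5 and E7, and E8 took 67 reads from S3 and S6.

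S1-E1 had 28 reads in BCP and was listed at 0 in Sham, where 40.1 reads would match the BCP level. With 1 unlisted read in Sham the interval of the ratio would begin at 6.64. At 466 bp it was the shortest Rere circRNA, and the next was 10558 bp. Its end, E1, was used by no other circRNA. Its start, S1, was used in Sham by S1-E2 alone, with 0 reads in BCP and 4 in Sham. S1 as a whole thus had 28 reads in BCP and 4 in Sham.

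S3-E4 had 0 reads in BCP and 11 in Sham, where the Sham level corresponds to 7.67 reads in BCP. If BCP had 1 unlisted read, it would be 7.67-fold lower there with an interval of 1.12 to 330.2. E4 was used by S3-E4 alone, while S3 gave 132 reads to other ends in BCP.

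The other circRNAs listed in 1 library had few reads. In BCP alone, S6-E5 and S7-E6 had 2 reads each. In Sham alone, S2-E7 had 7 reads, S1-E2 had 4 and S8-E7 had 3. All 5 fell short of the read minimum. With a minimum of 5 reads S2-E7 met the rule as lower in BCP, but with 1 unlisted read in BCP its ratio was 0.205 and the interval (0.00454 to 1.59) held 1. For the other 4, a difference was not detectable at this depth. S2-E7 and S7-E6 also carried small RNA family names in their gene field.

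Set side by side, circRNAs listed in 1 library were the smaller part of the gene but unequally so. The 4 listed in BCP alone held 62 of 340 reads in BCP (18.2%, 14.3 to 22.8), and the 4 listed in Sham alone held 25 of 479 reads in Sham (5.22%, 3.41 to 7.61). Counting only circRNAs with at least 10 reads, the shares were 17.4% in BCP and 2.40% in Sham. Over all circRNAs the shares went the other way, at 12.4% of BCP reads and 15.9% of Sham reads. S4-E8 and S1-E1 gave 58 of the 62 Rere reads in BCP alone. The gene was picked on calls that include these, so nothing is read from the comparison of these shares. Median spans were 22250 bp for BCP alone, 46329 bp for Sham alone and 54904 bp for both, against 8552, 11256 and 9036 bp over the whole table. Rere circRNAs listed in both had a median of 62 reads summed over the libraries, those in BCP alone 15 and those in Sham alone 5.5. The corresponding medians of the whole table were 14, 3 and 3 reads.

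All 8 circRNAs listed in 1 library had at least 1 of their sites in use in the other library. Both sites were in use there for 2 of the 4 in BCP alone (S4-E8 and S6-E5) and for 0 of the 4 in Sham alone. In the whole table, both sites were in use in the other library for 7.13% of circRNAs listed in BCP alone and 6.89% of those listed in Sham alone. No site was in use there for 56.0% and 55.8%. These shares were not worked out for genes with many circRNAs alone, where sharing of sites is more common.

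**Figure D3:**
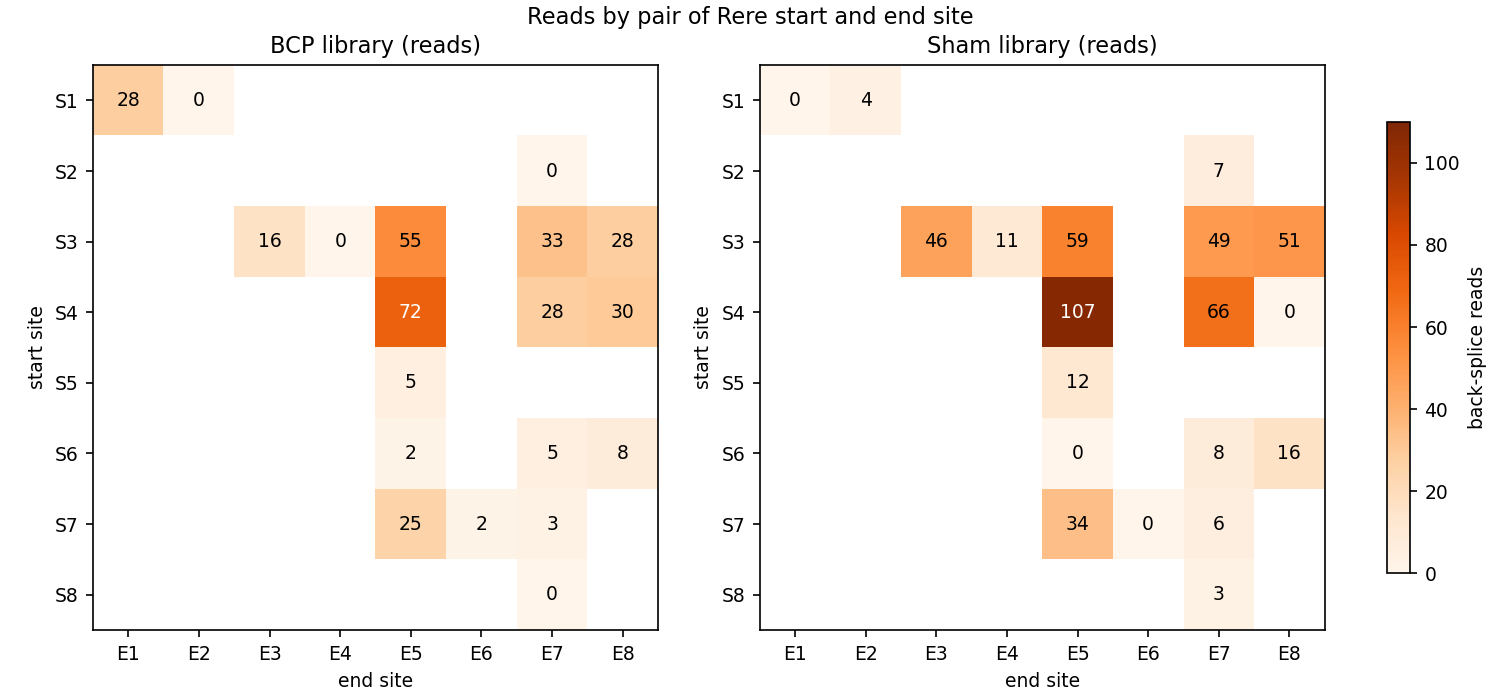
Back-splice reads for each pair of start site (rows) and end site (columns), BCP library left and Sham library right, on a common colour scale. White cells without a number are pairs that the table does not list. S4-E8 holds 30 reads in BCP and 0 in Sham, and its neighbours S3-E8 (28 and 51 reads) and S4-E7 (28 and 66 reads) were listed in both.

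Sites used by at least 3 circRNAs form a grid of 4 starts (S3, S4, S6 and S7) and 3 ends (E5, E7 and E8), which held 289 reads in BCP and 396 in Sham, 85.0% and 82.7% of the gene's reads. Of its 12 pairs, 11 had reads in BCP and 9 in Sham. S7-E8 was listed in neither. The totals of a row and a column give a plain yardstick for a cell, the reads it would hold if every start used the ends in the same proportions. For S4-E8 this was 29.7 reads in BCP, where 30 were found, and 29.3 in Sham, where 0 were found. For S4-E5 it was 69.3 in BCP (72 found) and 87.4 in Sham (107 found), and for S3-E8 it was 26.5 in BCP (28 found) and 26.9 in Sham (51 found). Each yardstick includes the cell's own reads in its totals, so part of a match is built in. The 30 reads of S4-E8 raise its yardstick in BCP, and its 0 lowers the one in Sham. The other Sham yardsticks also include this 0 in their totals. Agreement with the yardstick was not general. S7-E5 had 25 reads in BCP and 34 in Sham, above 14.9 and 20.2, and S6-E5 had 2 and 0, below 7.99 and 12.1.

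The same reads can be given as the way each main start divided them among ends. This restates the counts above and adds no support to them. From S4, E8 took 23.1% of reads in BCP (16.1 to 31.3) and 0 of 173 reads in Sham. E7 took 21.5% in BCP (14.8 to 29.6) and 38.2% in Sham (30.9 to 45.8), and E5 took 55.4% (46.4 to 64.1) and 61.8% (54.2 to 69.1). The reads of S4-E7 and S4-E8 together, a sum chosen after the values were seen, were 58 in BCP and 66 in Sham. Their ratio was 1.26 (0.870 to 1.82). Adding a higher and a lower circRNA gives a ratio between theirs, so nothing is read from it. From S3, E8 took 21.2% in BCP (14.6 to 29.2) and 23.6% in Sham (18.1 to 29.8), and E7 took 25.0% (17.9 to 33.3) and 22.7% (17.3 to 28.9). E5 took 41.7% of S3 reads in BCP (33.2 to 50.6) and 27.3% in Sham (21.5 to 33.8), while E3 took 12.1% (7.09 to 18.9) and 21.3% (16.0 to 27.4). The intervals of E8 thus overlapped between the libraries for S3, while for S4 the Sham share was 0. S7 sent most reads to E5 in both, 83.3% in BCP (65.3 to 94.4) and 85.0% in Sham (70.2 to 94.3).

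**Figure D4:**
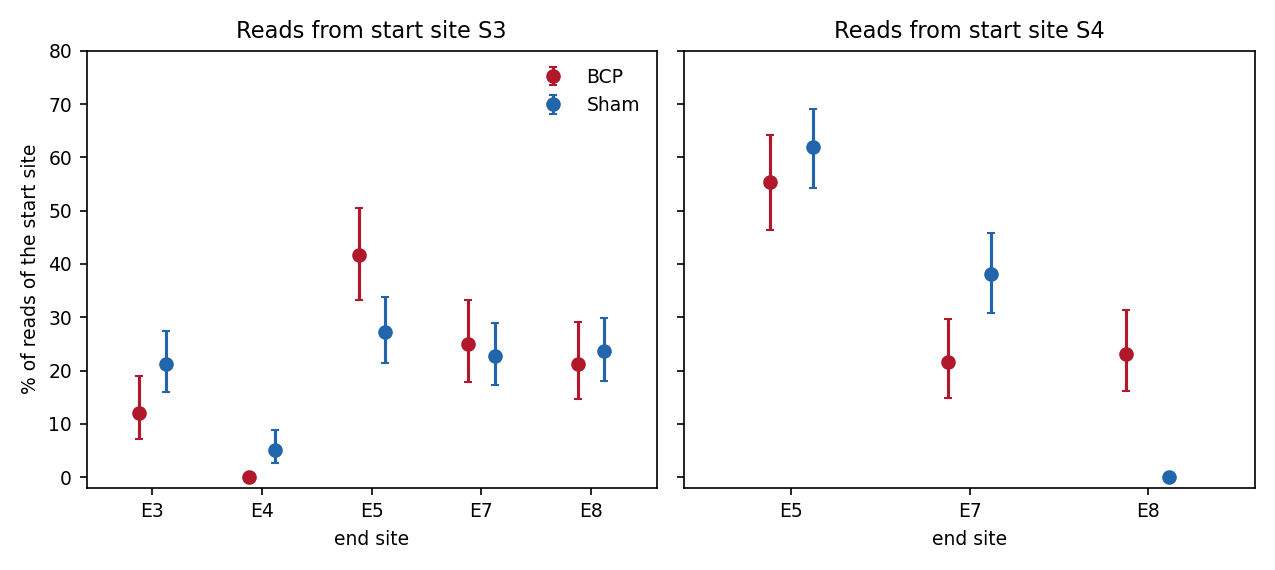
Share of the reads of start S3 (left) and start S4 (right) that went to each end site, in percent, for BCP (red) and Sham (blue). Bars are exact binomial 95% intervals and are left off where the share is 0. For S4, E8 took 23.1% in BCP and 0 in Sham, and for S3 it took 21.2% and 23.6%.

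Against other genes, Rere had many circRNAs, and its most abundant one held a small share of its reads. Of the 202 host genes with at least 8 circRNAs, 6 had more than Rere, 9 had more reads in BCP and 12 had more in Sham. Its most abundant circRNA held 21.2% of its reads in BCP and 22.3% in Sham, and the median gene's held 38.9% and 35.2%. Only 10 of the 202 had a lower share in BCP and 24 in Sham. The median gene had only 10.5 circRNAs, however. Of the genes that also had 19, Atp9b had a top share of 17.7% in BCP and 22.5% in Sham. Ryr2 had 26.2% and 33.3%, and Dennd1b had 45.5% and 37.7%. Its share of reads in circRNAs of 1 library was exceeded by 55 genes in BCP and by 165 in Sham. Calls in both directions were found in 11 of the 202 genes.

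The 5 genes whose shares of reads in circRNAs of 1 library lay nearest to those of Rere, by straight-line distance over both libraries, were Trim37, Hecw1, Csmd2, Arhgap10 and Specc1. Trim37, which encodes a ubiquitin ligase, had 18.2% in BCP and 6.40% in Sham. Hecw1, another ubiquitin ligase gene, had 16.9% and 3.06%, and Csmd2, a gene for a large membrane protein, had 20.4% and 6.90%. Arhgap10, for a GTPase-activating protein, had 22.4% in BCP and 2.99% in Sham, and Specc1 had 15.5% and 9.17%. With 2 values per gene this is a rough likeness, and it did not extend to calls by the size rule. Trim37, Hecw1, Csmd2 and Specc1 had 0 called of 5, 8, 5 and 3 circRNAs with enough reads. Arhgap10 had 4 of 5 higher and 0 lower, beside 15.2% called over all 3502. Their sums ran from a ratio of 0.825 (0.638 to 1.06; Trim37) to 2.67 (1.97 to 3.66; Arhgap10), and those of Hecw1, Csmd2 and Specc1 had intervals that held 1.

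**Figure D5:**
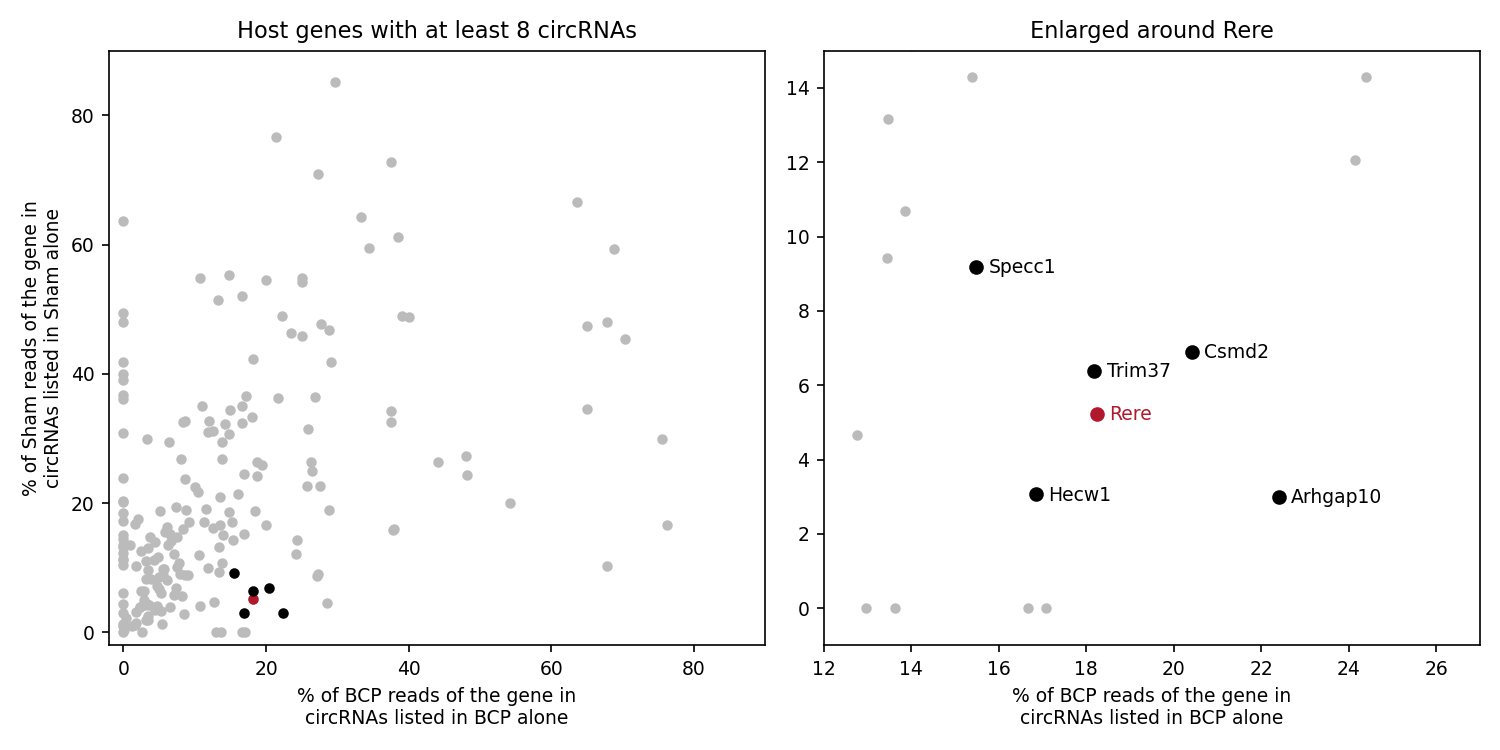
Share of each host gene's reads in circRNAs listed in 1 library only, BCP on the horizontal axis and Sham on the vertical, for the 202 genes with at least 8 circRNAs. The right panel enlarges the region around Rere (red; 18.2% and 5.22%) and names the 5 nearest genes (black).

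Genes linked to RERE were looked at as hosts too, in 3 lists. These hold its family and partners, genes of retinoic acid signalling, and corepressor genes that share its domains. Their counts by the size rule stand beside 7.82% higher and 7.34% lower of the 3502 circRNAs with enough reads, and with so few circRNAs per list nothing is called particular to a list. Of the atrophin family and RERE partners, 6 of 12 genes hosted 29 circRNAs, and 12 of these had enough reads. By the size rule 2 were higher in BCP, 0 were lower and 10 met neither side. The list summed to 251 reads in BCP and 307 in Sham, a ratio of 1.17 (0.988 to 1.39), and its median log2 ratio was 0.05. The circRNA of Hdac2, a histone deacetylase gene, had 43 reads in BCP and was listed at 0 in Sham (chromosome 20, 43092420 to 43093954). Ehmt1 encodes a histone H3 lysine methyltransferase and hosted 18 circRNAs with 89 reads in BCP and 105 in Sham. Of the 6 with enough reads, one (chromosome 3, 2021173 to 2025998) had 13 reads in BCP and 4 in Sham, 4.66-fold higher (1.44 to 19.6). The other 5 met neither side, with ratios between 0.478 and 2.15 and intervals that held 1. The paralogue Ehmt2 had 1 circRNA with enough reads, 33 in BCP and 52 in Sham, and so had the acetyltransferase gene Ep300, with 31 and 57. Neither met the rule. Crebbp, another acetyltransferase gene, had 2 such circRNAs, with 43 and 2 reads in BCP against 63 and 8 in Sham, and the orphan nuclear receptor gene Nr2f1 had 1, with 6 in BCP and 8 in Sham. These 3 did not meet the rule either. Atn1, the atrophin paralogue of Rere, hosted none, and neither did Hdac1, Hdac3, Wdr5, Nr2f2 or Nr2e1.

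Of 25 genes of retinoic acid signalling, 3 hosted circRNAs, 23 in all, with 56 reads in BCP and 86 in Sham (ratio 0.934, 0.655 to 1.32). No retinoic acid receptor gene and no gene for retinoic acid synthesis or breakdown on the list had one. Enough reads were found for 3 circRNAs, of which 1 was higher in BCP by the size rule, 1 was lower and 1 met neither side, with a median log2 ratio of -0.58. Ncor1, a corepressor gene, hosted 10 circRNAs with 11 reads in BCP and 33 in Sham, and 0 of them had enough reads.

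Other corepressor genes whose products share the ELM2 and SANT domains with RERE gave 46 reads in BCP and 100 in Sham (ratio 0.660, 0.455 to 0.944). Of the 13 names, 8 were hosts, of 13 circRNAs in all, and Elmsan1 and Mideas name the same gene. Of 7 with enough reads, 0 were higher, 2 were lower and 5 met neither side, with a median log2 ratio of -0.43, beside 7.34% lower and a median of 0.02 over all 3502. The lower ones, of Mta1 (a subunit gene of a chromatin remodelling and deacetylase complex; chromosome 6, 137946189 to 137946580) and Trerf1, each had 0 reads in BCP and 11 in Sham. The 5 that met neither side were 2 of Mta1 (12 and 11 reads in BCP, against 26 and 9 in Sham) and 1 each of Rcor3 (7 in BCP and 14 in Sham), Mier2 (5 and 5) and Elmsan1 (5 and 6).

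Marker genes of the cell types of the cord were looked at as hosts too, on lists chosen with earlier results of these data known. A list's ratio thus describes its few host genes and not the cell type. Of 12 neuronal genes, 8 were hosts, with 247 reads in BCP and 385 in Sham (3133 and 3406 CPM; ratio 0.920, 0.781 to 1.08), and Elavl4, Slc17a6, Gad1 and Gad2 had none. By the size rule 2 of their 9 circRNAs with enough reads were higher in BCP and 1 was lower, beside 7.82% and 7.34% over all 3502. Of 8 oligodendrocyte genes, 3 were hosts, with 45 reads in BCP and 11 in Sham (571 and 97.3 CPM; ratio 5.87, 2.99 to 12.6), of which Mbp gave 36 and 6 and Mog gave 0 and 3. The 1 circRNA with enough reads was higher in BCP. Mobp, Mag, Cnp, Sox10 and Opalin had none. Of 9 microglia and macrophage genes, 3 were hosts, with 55 reads in BCP and 13 in Sham (698 and 115 CPM; ratio 6.07, 3.27 to 12.1), and both circRNAs with enough reads were higher in BCP. Ikzf1 (43 in BCP and 11 in Sham) and Dock8 (12 and 0) gave nearly all of these reads, and Ptprc gave 0 and 2. Aif1, Cx3cr1, Csf1r, P2ry12, Itgam and Inpp5d had none. Of 6 astrocyte genes only Slc1a2 was a host, with 3 reads in BCP and 5 in Sham, and Gfap, Aqp4, Slc1a3, Aldh1l1 and Gja1 had none. The part of these cell types in the Rere values was not tested. A gene without a circRNA here may still be transcribed, because linear RNA had been digested.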

How the data were processed

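Total RNA of spinal cord was depleted of ribosomal RNA, digested for 15 min with RNase R (16 units) and made into strand-marked libraries, per the labels' protocols. Per the submitters' processing notes, CASAVA 1.8 and BWA were used with build rn6. Which caller, annotation and read minimum were used is not stated there. The authors deposited 1 table with back-splice read counts and a scaled value per library. The columns headed TPM in the deposited table are CPM: all 7375 BCP and 9003 Sham values above 0 equal the count over the column total to within 0.001, and 0 is written as 0.001. A read minimum sets thin circRNAs to 0, more so in the shallower library.

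Counts were scaled to the library totals (78836 in BCP, 113033 in Sham). Ratios have 95% conditional exact binomial (Clopper-Pearson) intervals, and shares have exact binomial ones. The size rule was a minimum of 10 reads, a 2-fold ratio with 0.5 reads added and an interval that excludes 1. It was applied to the whole table and tested on simulated data. The simulated counts varied by Poisson counting error only, so they do not cover differences between animals or between libraries of 1 group. With 1 library per group no p-value was computed. Host genes exclude small RNA family names and 10 names spread over several chromosomes or over 3 Mb, which left 3915, of which 3586 matched a RefSeq symbol (GRCr8, names only). The nearest genes were the 5 with the smallest distance to Rere among hosts with at least 8 circRNAs. The rule named Rere circRNAs with at least 10 reads, those that met the size rule and the 3 with most reads, and the other 6 are given by their reads so that all 19 are accounted for. The members and lists were chosen with earlier results of these data known. Alternatives were scaling by median of ratios (in DESeq2, version 1.42.0) or by TMM (in edgeR, version 4.0.16), other minimums, folds and pseudocounts, and circRNAs left out. Python 3.11.15 and SciPy 1.17.1 were used. Sequences across the junctions were not used here. Values of some single genes on the lists are not reported here.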

Additional observations from a re-analysis of the deposited data

How the results depend on the processing

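S4-E8 and S1-E1 were higher in BCP under all 8 alternatives of scaling, read minimum, fold and pseudocount, and also with 1 read given where a circRNA is listed at 0, which was chosen after seeing the data. At 30 and 28 reads in BCP against 0 in Sham, these settings could hardly have changed either call. The gene was picked on these same counts, so the repeated calls add no support and do not stand in for replicates. The count of Rere circRNAs lower in BCP, with values nearer the limits of the rule, varied with the setting. It was 2 with median-of-ratios and with TMM scaling, which both add S3-E3, and 2 with a minimum of 5 reads or none, which add S2-E7. It was 3 with the interval alone, which adds S3-E3 and S4-E7, and 0 with a minimum of 20 reads, which leaves S3-E4 untested. Median-of-ratios scaling moved every log2 ratio by -0.10 and TMM by -0.12. They called 231 higher and 304 lower, and 228 and 308, over all circRNAs. Over all circRNAs a minimum of 5 reads gave 690 higher and 558 lower, as did no minimum, and 20 reads gave 139 and 112.

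The summed ratio of 1.02 became 0.946 and 0.938 with median-of-ratios and TMM scaling, 0.878 from circRNAs listed in both libraries and 0.844 without S4-E8 and S1-E1, also chosen after seeing the data. The share of Rere reads in circRNAs listed in 1 library became 23.1% in BCP without S4-E5, and 2.40% in Sham with a minimum of 10 reads. No paired analysis was possible because each group has 1 library, and for the same reason no replicate could be left out.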

Other observations

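S4-E8 was one of 7 circRNAs with at least 10 reads in BCP alone (of 84) whose start and end were both in use in Sham. The others, named after their values were seen, were hosted by Dnajc1 (32 reads in BCP), Usp6nl (25), Mcph1 (20), Man1a2 (19), Cpeb3 (19) and Acbd6 (17). In the other direction 16 of 174 were listed in Sham alone with both sites in use in BCP, led by Eif4e3 (50 reads in Sham), Eri3 (45), Rims1 (42) and Stag1 (40). Acbd6, a gene for an acyl-CoA binding protein, was on both sides, with 25 reads in Sham for the one listed there alone.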
